A study of Mus musculus with 6 samples.

Results

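The cytosolic heat shock chaperones were followed as 10 genes in mouse liver, namely Hspa1a, Hspa1b, Hspa8, Hsph1, Dnajb1, Dnaja1, Hsp90aa1, Hsp90ab1, Hspb1 and Bag3. They were picked by gene symbol from the 16123 genes of the deposited table, with the difference between exercise and sedentary livers already known. That difference is therefore given for them as a description, with the libraries' values and no p-value. How many of them the fit over all genes called is printed only beside the share of all genes it called. Liver RNA came from 3 mice that had each covered 22 km in treadmill running over 6 weeks (exercise) and from 3 mice that had no treadmill training (sedentary). Livers of the exercise mice were taken 24 h after the last session, and the labels name no strain, sex, age or genetic change for either group. Each library stands for 1 mouse per the design text, and the study asked how moderate exercise alters liver metabolism.

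Cytosolic chaperones keep proteins folded and refold those that stress has damaged. HSP70 proteins bind exposed stretches of a client protein in a cycle of ATP use. J-domain cochaperones bring clients and start the cycle, and nucleotide exchange factors of the HSP110 and BAG families end it. HSP90 takes over clients such as kinases and steroid receptors, and small heat shock proteins hold unfolded proteins without using ATP. Heat shock factor 1 (HSF1) switches on the stress-inducible members of the system through heat shock elements, which are repeats of GAA in alternating orientation, while Hspa8 and Hsp90ab1 are known as forms that cells make without stress.

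Hspa1a and Hspa1b encode the stress-inducible HSP70 and lie next to each other on chromosome 17, so their sequences bear on what their reads can show. In the GRCm38.p6 build Hspa1b spans 34956429 to 34959238 and Hspa1a spans 34969359 to 34972156, and both are transcribed from the minus strand as 1 exon. Their coding sequences were identical at 99.4% of 1926 aligned positions, with 8 substitutions and a gap of 3 bases. Their RefSeq promoter windows, 300 bases of which 250 lie before the start, differed at 4 bases. The stretches around their heat shock element, shown here because these 2 genes had the highest fold changes among the 10, were the same in all 140 bases, with the element in capitals (chr17:34972177-34972316 and chr17:34959259-34959398, minus strand, GRCm38.p6).
Hspa1a: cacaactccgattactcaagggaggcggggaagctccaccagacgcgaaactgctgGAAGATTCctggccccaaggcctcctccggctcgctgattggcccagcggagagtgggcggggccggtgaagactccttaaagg
Hspa1b: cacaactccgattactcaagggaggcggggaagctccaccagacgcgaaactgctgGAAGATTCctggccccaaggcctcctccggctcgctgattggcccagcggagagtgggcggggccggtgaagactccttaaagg

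The search was for a short element of 2 units (GAANNTTC or TTCNNGAA) and for a longer one of 3 units, on both strands. The longer element is either short one followed by NN and once more by its own opening unit, so it contains both. Of the 10 genes 7 had a promoter window in the RefSeq table of the GRCm38.p6 build, and Hspa8, Hsp90aa1 and Hsp90ab1 had none. The short element was in a window of 6 of the 7, against 17.0% of all 27025 genes with a window. The longer one was in 1 of the 7, Hsph1, against 0.662% of all genes. Hspa1a and Hspa1b, whose windows are nearly the same, are both among the 6 with the short element. The only match of Bag3 lay after the start, at bases 43 to 50. In Dnajb1 neither set of letters was found within its windows. These matches describe the letters only. Further stretches are shown to set the spacing of the elements beside that in the HSP70 pair, namely Hspb1 with 2 elements (chr5:135887784-135887843, plus strand), Dnaja1 with 1 (chr4:40722318-40722377, plus strand) and the longer element of Hsph1, which lies after the start (chr5:149636287-149636314, minus strand).
Hspb1: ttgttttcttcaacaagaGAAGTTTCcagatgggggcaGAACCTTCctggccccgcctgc
Dnaja1: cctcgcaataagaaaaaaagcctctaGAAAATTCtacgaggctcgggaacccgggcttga
Hsph1: taaaatgctgcagaTTCTGGAAAGTTCt

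The 6 libraries held 17941303 to 18371949 counts, of which 0.211% to 0.218% fell on the 10 genes in sedentary and 0.278% to 0.280% in exercise libraries. Libraries of a group were nearly alike. For genes whose reads in 2 libraries summed to at least 20 and under 2000, the chi-square per gene was 1.13 to 1.22 within groups and 5.08 to 5.51 between them, where counting noise gives 1. Genes whose summed reads reached 2000, such as Hspa8, Hsp90ab1, Dnaja1 and Hsp90aa1, had 2.48 to 3.32 in pairs of 1 group and 141 to 155 in pairs across groups. The common coefficient of variation that edgeR fitted beyond counting noise was 1.84%. P-values therefore measure the spread between these libraries only, and whether it holds the full variation between mice was not tested. All 12 hepatocyte markers were measured in every library, summing to 85925 to 87330 FPKM in sedentary and 88650 to 89136 FPKM in exercise libraries. By edgeR 7 of these 12 were higher in exercise and 4 were lower. Kupffer cell and macrophage markers were lower in exercise (8 of 10 passed the test, summed 313 to 316 against 259 to 263 FPKM). Of 10 endothelial markers 4 were higher and 6 did not pass (median log2 fold change 0.13, summed 100.2 to 102 against 112 to 118 FPKM). Sums of FPKM are not TMM-scaled, and by limma on log2(FPKM + 1) the median log2 fold change of all tested genes was 0.06. Stellate cell and fibroblast markers had 4 of 9 higher and 1 lower (summed 80.9 to 83.1 against 103 FPKM). Of 9 pancreatic acinar markers 2 were tested and 2 were lower (summed 17.1 to 18.3 against 8.17 to 8.68 FPKM). Of 6 cholangiocyte markers 2 were tested and 1 was lower (summed 63.0 to 65.6 against 32.7 to 34.6 FPKM). The other markers of these lists had a mean under 1 FPKM, so their sums do not describe whole lists. Of 6 erythroid markers 5 were tested and 4 were lower (summed 381 to 393 against 335 to 352 FPKM). Neutrophil, lymphocyte and muscle lists summed to at most 17.9, 5.21 and 1.65 FPKM in any library. No marker listed in the table was at 0 in all libraries, and the part of these shifts in the chaperone results was not tested. In bulk liver, fewer cells of a type and less RNA per cell cannot be told apart.

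All 10 chaperone genes had a higher mean FPKM in exercise than in sedentary livers. The FPKM of the groups did not overlap for 9 of them, while 36.6% of the 10266 tested genes were separated upward in this way. By edgeR on TMM-scaled counts 9 of the 10 were called higher, beside 19.1% of all tested genes, and nothing is read from that count because the genes were chosen on this contrast. The exception in both counts was Hspb1. Without exercise replicate 1 Hspb1 was called and Hsp90ab1 was not, and Hsp90ab1 was also not called without exercise replicate 2, without sedentary replicate 1 or 3, by DESeq2 or among genes with a mean of at least 5 FPKM. Calls over all genes numbered 1961 higher and 1952 lower, but 3537 and 1203 when scaled to library totals without TMM and 2868 and 1099 by limma on log2(FPKM + 1). All 10 genes were called higher in both of these, beside 34.5% and 27.9% of all tested genes. With the libraries of a group summed and a variation of 0.1 between animals assumed, 3 were called (Hspa1a, Hspa1b and Hsph1), beside 0.487%. By DESeq2 8 were called, beside 12.4%, and against a 1.2-fold change 6, beside 2.33%. All 10 genes passed the filter of a mean of 1 FPKM over the libraries, Hspa1a only through its exercise libraries. The gene changes spread widely, from a log2 fold change of 3.13 for Hspa1a to 0.06 for Hsp90ab1, with a median of 0.52 against −0.000622 over all tested genes.

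**Figure D1:**
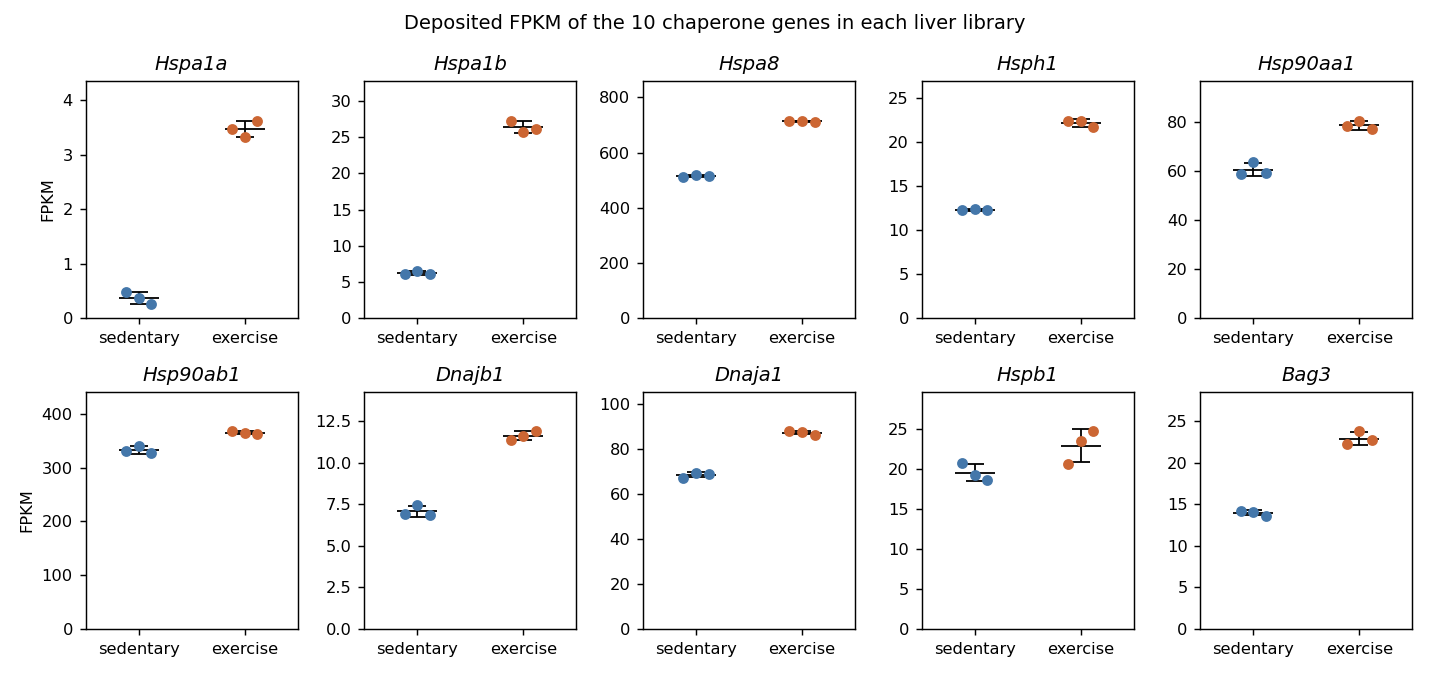
Deposited FPKM (y axis, from 0, a separate scale for each gene) of the 10 chaperone genes in 3 sedentary (blue) and 3 exercise (orange) liver libraries, with the mean and SD of each group in black. The groups are apart for every gene except Hspb1, whose exercise replicate 1 (20.7 FPKM) lies just below sedentary replicate 1 (20.8 FPKM).

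Among the 10 genes inducible HSP70 had the steepest difference. Sedentary livers gave 22.4, 16.8 and 12.3 reads of Hspa1a (gene ID 193740), and exercise livers gave 156, 149 and 163. Every exercise library had more than 6 times the reads of any sedentary library. As FPKM this was 0.377 ± 0.110 in sedentary and 3.48 ± 0.150 in exercise (SD, n = 3). The log2 fold change was 3.13 (SE 0.17) on TMM-scaled counts and 1.70 with limma on log2(FPKM + 1), where the pseudocount exceeds its sedentary level and Hspa1b, at 1.93, stood above it. Even so, Hspa1a was the lowest of the 10 genes in both groups.

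Hspa1b (gene ID 15511) had 278, 297 and 276 reads in sedentary and 1233, 1153 and 1182 reads in exercise libraries. Its level went from 6.21 ± 0.286 to 26.4 ± 0.808 FPKM (SD, n = 3), with a log2 fold change of 2.01 (SE 0.05). The counts of Hspa1a and Hspa1b were not whole in any of the 6 libraries, whereas those of the other 8 genes were whole in all. Counts that are not whole occurred in 7.23% of the listed genes.

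Added together, the reads of Hspa1a and Hspa1b came to 300.0, 314 and 288 in the sedentary libraries and 1389, 1302 and 1345 in the exercise libraries. These sums were whole in all 6 libraries, within 0.015 reads. The fractions in the 2 rows thus cancelled, and the sum does not depend on how reads were divided between them. The sum went up with a log2 fold change of 2.10 (SE 0.05), a 4.30-fold difference, which lies near that of Hspa1b alone. The part given to Hspa1a was 7.46%, 5.36% and 4.28% of these reads in sedentary and 11.3%, 11.4% and 12.1% in exercise libraries.

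The transcripts themselves show how much of each gene a single read can tell apart. Of all stretches of 150 bases, the read length, 38.1% of the Hspa1a transcript and 40.5% of the Hspa1b transcript in GENCODE M21 also occur in the other. Within the coding sequence it was 54.6% and 54.5%. After the coding sequence, over 813 bases in Hspa1a and 646 bases in Hspa1b, no stretch of that length was shared. Reads came in pairs, and a pair is told apart if either read differs, so these shares are not the shares of pairs. The separate values of Hspa1a and Hspa1b are uncertain because of this sharing, to an extent that was not measured. GENCODE also places Gm20481 on the opposite strand over 2225 bases of Hspa1a, and whether counting used strand is not given in the sources used here.

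**Figure D2:**
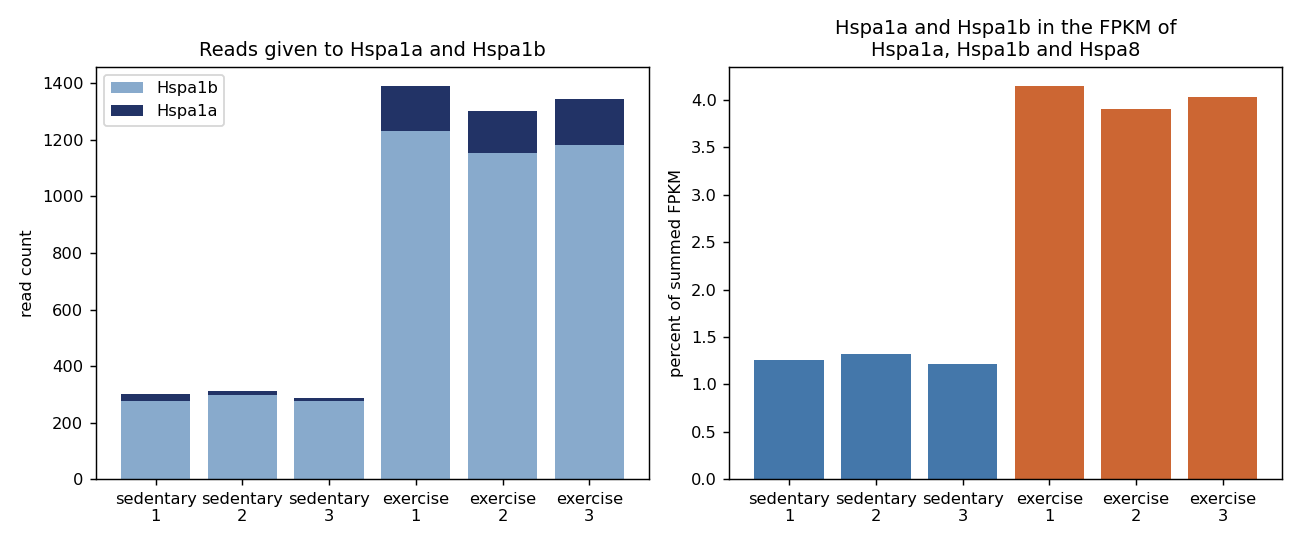
Left, read counts given to Hspa1b (light) and Hspa1a (dark), stacked, in each library. Right, the percent of the summed FPKM of Hspa1a, Hspa1b and Hspa8 that came from Hspa1a and Hspa1b; sedentary libraries lie at 1.21% to 1.32% and exercise libraries at 3.90% to 4.14%.

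Hspa8 (gene ID 15481, chromosome 9, 40801276 to 40805202), the HSP70 of unstressed cells, was the most abundant of the 10 genes. It stood at 512, 518 and 513 FPKM in the sedentary libraries and 712, 716 and 709.6 FPKM in the exercise libraries. The gap of 192 FPKM between the nearest libraries of the groups was far wider than the spread within either. Its log2 fold change was 0.40 (SE 0.02). The increase in mean level, 198 FPKM, was 62.6% of the increase summed over the 10 genes, although 5 of the other genes had a larger fold change. Summed over Hspa1a, Hspa1b and Hspa8, HSP70 went from 521 ± 3.502 to 742 ± 2.75 FPKM (SD, n = 3). The inducible pair made up 1.26% ± 0.0510 of that sum in sedentary and 4.03% ± 0.120 in exercise livers (SD, n = 3), so Hspa8 remained the bulk of HSP70 RNA in both. The small nucleolar RNA genes Snord14c, Snord14d and Snord14e lie inside Hspa8 on its strand.

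Hsph1 (gene ID 15505, chromosome 5, 149616843 to 149636498) encodes HSP110, which releases nucleotide from HSP70. It had 713, 714 and 706 reads in sedentary and 1280, 1269 and 1240 reads in exercise libraries, a log2 fold change of 0.77 (SE 0.04). The sedentary libraries differed by less than counting noise would give (a coefficient of variation of 0.924% against 3.75%). Relative to HSP70, its FPKM went from 2.36% ± 0.00475 to 2.98% ± 0.0450 of the summed HSP70 FPKM (SD, n = 3).

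Among J-domain cochaperones, Dnajb1, which partners inducible HSP70 in refolding, differed more than Dnaja1, a farnesylated partner of Hspa8. Dnajb1 (gene ID 81489, chromosome 8, 83608175 to 83612653) had 342, 366 and 338 reads in sedentary and 555, 563 and 580 reads in exercise libraries. That is a log2 fold change of 0.64 (SE 0.06). Dnaja1 (gene ID 15502, chromosome 4, 40722468 to 40734965) stood at 67.3, 69.3 and 69.1 FPKM in sedentary and 87.9, 87.8 and 86.4 FPKM in exercise libraries, a log2 fold change of 0.27 (SE 0.03). The groups of both genes were separate. Dnajb1 remained far below Dnaja1 in level, at 10.3% ± 0.426 of its FPKM in sedentary and 13.3% ± 0.423 in exercise livers (SD, n = 3). Together the 2 cochaperones came to 14.5% ± 0.172 of the HSP70 FPKM in sedentary and 13.3% ± 0.0388 in exercise livers, so HSP70 gained more than they did. Smu1 overlaps Dnaja1 by 608 bases on the opposite strand, and its counts were 873 to 930 in sedentary and 906 to 972 in exercise libraries.

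Of the HSP90 pair, Hsp90aa1 differed more than Hsp90ab1. Hsp90aa1 (gene ID 15519, chromosome 12, 110691036 to 110696395), the stress-inducible form, stood at 58.6, 63.5 and 59.2 FPKM in sedentary and 78.1, 80.5 and 77.0 FPKM in exercise libraries. Its log2 fold change was 0.30 (SE 0.03). Hsp90ab1 (gene ID 15516, chromosome 17, 45567778 to 45573261), the constitutive form, stood at 331, 341 and 327 FPKM in sedentary and 368, 364 and 362 FPKM in exercise libraries. On the FPKM scale the groups of Hsp90ab1 were apart by 21.1 FPKM. On TMM-scaled counts its log2 fold change was only 0.06 (SE 0.02), a 1.04-fold difference, against 0.13 when scaled to library totals, where the median of all genes lay at 0.08. The FPKM ratio of Hsp90aa1 to Hsp90ab1, which no scaling between libraries can move, went from 0.181 ± 0.00465 to 0.215 ± 0.00500 (SD, n = 3).

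Hspb1 (gene ID 15507, chromosome 5, 135887919 to 135889563), a small heat shock protein that also binds actin filaments, was the only one of the 10 genes whose groups overlapped. It had 225, 208 and 200 reads in sedentary and 221, 249 and 267 reads in exercise libraries. Exercise replicate 1 fell within the sedentary range, and the other exercise libraries lay above it. The log2 fold change was 0.16 (SE 0.08) and, with 1 library left out, between 0.10 without exercise replicate 3 and 0.24 without exercise replicate 1.

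Bag3 (gene ID 29810, chromosome 7, 128523583 to 128546981) links HSP70 to small heat shock proteins and to autophagy. It had 592, 586 and 567 reads in sedentary and 917, 974 and 937 reads in exercise libraries, a log2 fold change of 0.64 (SE 0.05). The groups were far apart, with 8.09 FPKM between their nearest libraries. In GENCODE a further transcript, 2610306O10Rik, overlaps Bag3 on the same strand.

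By FPKM, a scale per transcript length, the sedentary order ran from Hspa8 through Hsp90ab1, Dnaja1, Hsp90aa1, Hspb1, Bag3, Hsph1, Dnajb1 and Hspa1b to Hspa1a, and no neighbours overlapped between libraries. In exercise livers Hspa1b moved up from rank 9 to rank 5. There Hspb1, Bag3 and Hsph1 stood at 22.9 ± 2.09, 22.9 ± 0.793 and 22.1 ± 0.407 FPKM (SD, n = 3), and their ranges overlapped. The summed FPKM of the 10 genes went from 1036 ± 14.1 to 1352 ± 6.26 (SD, n = 3).

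Among the 10 genes the fold change tended to be larger where the sedentary level was lower (Spearman's rho −0.83 over 10 genes, which share libraries and whose sedentary level enters both quantities). Over all tested genes rho was 0.00476. Hspa8 departed from that order, with the highest level and a fold change above those of Hsp90aa1, Dnaja1, Hspb1 and Hsp90ab1.

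**Figure D3:**
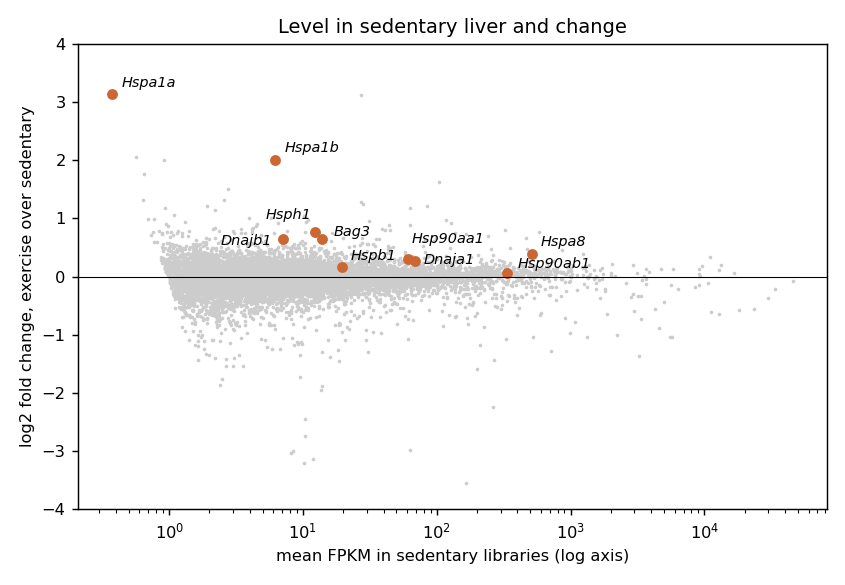
Log2 fold change of exercise over sedentary (y axis, edgeR on TMM-scaled counts) against the mean FPKM in sedentary libraries (log axis) for all tested genes (grey) and the 10 chaperone genes (orange, named). Hspa1a lies at the top left at 3.13, Hspa8 at the right at 0.40 and Hsp90ab1 near the line at 0.06; 5 tested genes lie beyond the y axis.

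**Figure D4:**
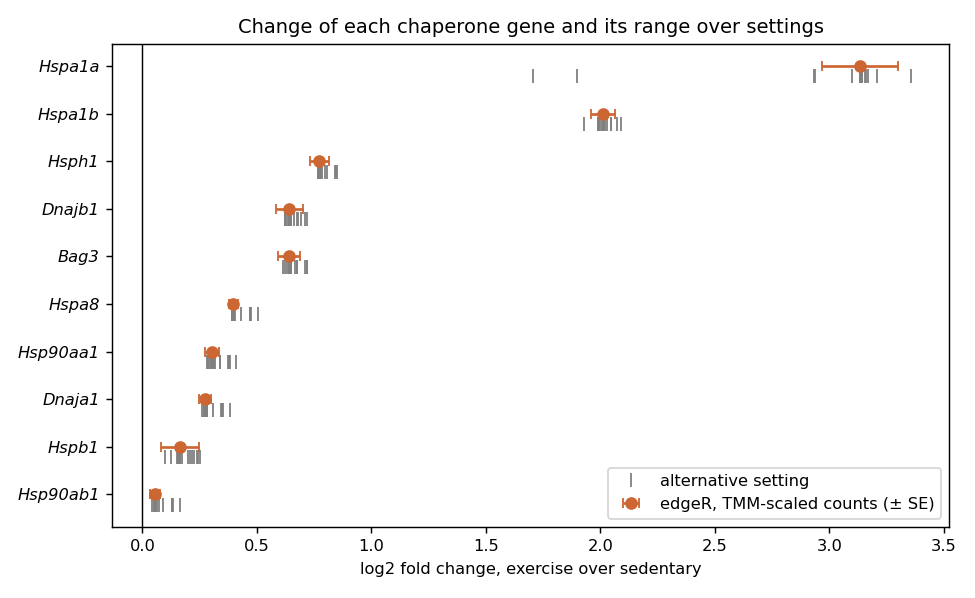
Log2 fold change of each chaperone gene (x axis), with orange points and bars for edgeR on TMM-scaled counts ± SE and grey ticks for each alternative setting. All ticks lie above 0; those of Hspa1a reach down to 1.70, a value from limma on log2(FPKM + 1), and those of Hsp90ab1 run from 0.04 to 0.17.

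Other genes of the cytosolic chaperone system rose more often than they fell by edgeR, and most did not pass. Over 6 lists of other cytosolic chaperones, cofactors, HSP90 cochaperones, small heat shock proteins and heat shock factors, 48 of 56 genes were tested. Of these 19 rose, 3 fell and 26 did not pass (edgeR, Benjamini-Hochberg adjusted over all tested genes), against 19.1% higher and 19.0% lower over all tested genes. Their median log2 fold change was 0.05. These and the lists below were also chosen with earlier results of these data known, so their counts and p-values are given as a description. The count that rose was 12 without sedentary replicate 3, beside 1714 of all tested genes, and 9 by DESeq2, beside 12.4%. In a test against a 1.2-fold change 2 rose (Dnajb4 and Chordc1), beside 2.33%. Without sedentary replicate 1, 1 fell. None of the 48 fell by DESeq2, where 2 did at an unadjusted p under 0.05, against 6 by edgeR.

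Of 14 HSP90 cochaperones 8 rose and 2 fell, with a median of 0.16. Chordc1, a zinc-binding partner of HSP90, led with 11.5 ± 0.740 FPKM in sedentary and 16.5 ± 1.07 FPKM in exercise (SD, n = 3; log2 fold change 0.44, SE 0.06, edgeR adjusted p = 2.42e-08). Ptges3, the p23 cochaperone, rose with a log2 fold change of 0.21, Fkbp5, a peptidyl-prolyl isomerase also known as a glucocorticoid target, with 0.27, and Ahsa2, a relative of the HSP90 ATPase activator, with 0.24. The 2 that fell were Cdc37, which loads kinases onto HSP90 (log2 fold change −0.12), and Ttc4 (−0.17), both named after their values were seen. Both calls ended by DESeq2, with limma on log2(FPKM + 1) and on library totals, that of Cdc37 also without exercise replicate 2 and that of Ttc4 without sedentary replicate 1 or exercise replicate 3.

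HSP70 cofactors had 4 of 10 higher (median 0.05) and none lower, also at an unadjusted p under 0.05 by edgeR or DESeq2. Stip1, which bridges HSP70 and HSP90, rose from 33.2 ± 0.520 to 41.5 ± 1.26 FPKM (SD, n = 3; edgeR adjusted p = 4.44e-07). Bag4, Bag1 and Bag5, relatives of Bag3, rose 1.12-fold, 1.07-fold and 1.13-fold, and each of these 3 calls ended by DESeq2 and without exercise replicate 2. Without exercise replicate 3 or sedentary replicate 3 the calls of Bag1 and Bag5 ended too, and that of Bag5 also without exercise replicate 1 or sedentary replicate 2.

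Other cytosolic J-domain proteins had 4 of 11 higher (median 0.10) and none lower, again also at an unadjusted p under 0.05 by edgeR or DESeq2. Dnajb4, a close relative of Dnajb1, stood at 8.78, 8.43 and 7.29 FPKM in sedentary and 12.01, 12.4 and 11.9 FPKM in exercise libraries (log2 fold change 0.48, SE 0.06, edgeR adjusted p = 6.59e-10). Dnajc5 rose 1.10-fold. Dnajc21 and Dnajc2 rose with log2 fold changes of 0.19 and 0.20. Both of these last calls ended by DESeq2, without exercise replicate 3 and without sedentary replicate 1 or 3, that of Dnajc21 also without exercise replicate 2 and that of Dnajc2 without exercise replicate 1.

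Of the other cytosolic HSP70 and HSP110 genes, 3 of 7 were tested and none passed by edgeR or DESeq2, while 1 was lower at an unadjusted p under 0.05 by edgeR. Hspa4, an HSP110 relative of Hsph1, had 2264 to 2467 reads in sedentary and 2309 to 2533 in exercise libraries, ranges that overlap (log2 fold change 0.00476, SE 0.03). Hspa1l, the neighbour of Hspa1a and Hspa1b on chromosome 17, had 1 to 4 reads in a library and was not tested.

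Small heat shock proteins other than Hspb1 went different ways. Hspb6 rose 1.19-fold, a call that ended by DESeq2 and without sedentary replicate 3 or exercise replicate 2 or 3. Hspb11, whose product is known as a part of intraflagellar transport, fell 1.53-fold on TMM-scaled counts (edgeR adjusted p = 0.00707). Its level was 7.68 ± 1.30 FPKM in sedentary and 4.41 ± 0.485 FPKM in exercise livers (SD, n = 3), and its counts were not whole in 4 of the 6 libraries. The call of Hspb11 ended by DESeq2 and without sedentary replicate 1 or exercise replicate 1. Cryab and Hspb8 did not pass, with log2 fold changes of −0.37 and −0.05.

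Of the heat shock factors and their regulators 2 of 6 rose and none fell (median −0.03), with 1 lower at an unadjusted p under 0.05 by edgeR and 0 by DESeq2. With each of the limma fits, and without sedentary replicate 2, 1 of the 6 fell. Hsf2 went from 6.74 ± 0.141 to 9.01 ± 0.336 FPKM (SD, n = 3; log2 fold change 0.34, SE 0.06, edgeR adjusted p = 1.36e-05). Hsf1 stood at 5.37, 6.57 and 6.06 FPKM in sedentary and 6.43, 8.83 and 7.08 FPKM in exercise libraries, ranges that overlap. Its log2 fold change was 0.24 (SE 0.09, edgeR adjusted p = 0.0262), a call that ended without sedentary replicate 1 or 3, without exercise replicate 2, by DESeq2 and by limma on log2(FPKM + 1). These are RNA levels, and HSF1 is known to be regulated largely as a protein.

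**Figure D5:**
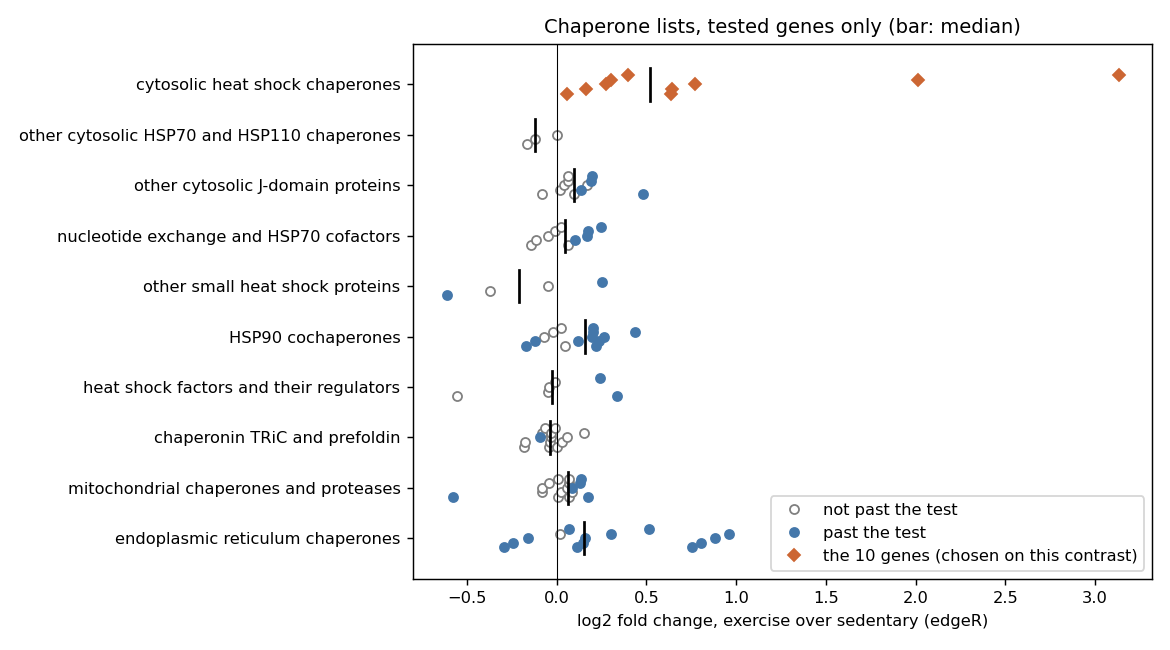
Log2 fold change (x axis, edgeR) of each tested gene in the 10 chaperone genes (diamonds, chosen on this contrast, with no call shown) and in 9 other lists (filled, past the test; open, not past it), with a bar at each median. The medians of the other lists lie between −0.21 and 0.16, and that of the 10 genes at 0.52.

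The TRiC and prefoldin system and the chaperones of mitochondria and endoplasmic reticulum are given for comparison, without a test of a difference between lists. None of the 14 chaperonin TRiC and prefoldin genes rose by edgeR, 1 of them being higher at an unadjusted p under 0.05, and none by DESeq2. Cct7, a TRiC subunit, fell with a log2 fold change of −0.09, which was 0.02 with limma on log2(TPM + 1). The call of Cct7 ended without sedentary replicate 1 or 2, without exercise replicate 2 or 3, by DESeq2 and each limma fit, on library totals, on totals without the 20 most abundant genes, and with no filter. Of these 14 genes 3 rose on library totals, where 34.5% of all tested genes did. With limma on log2(TPM + 1) 6 rose, beside 3716 of all 10266 tested genes. Without exercise replicate 2 or without sedentary replicate 1, 1 rose, beside 1712 and 1761 of all tested genes. Of 16 mitochondrial chaperone and protease genes 4 rose and 1 fell, and 10 rose on library totals, beside the same 34.5% of all tested genes. Hspa9, the mitochondrial HSP70, rose 1.06-fold and Lonp1, a matrix protease, 1.10-fold, and Grpel2, the exchange factor of Hspa9, 1.13-fold, while Hspd1 and Hspe1, the mitochondrial chaperonin pair, did not pass (log2 fold changes −0.04 and −0.08). The gene that fell, Hscb, which acts in iron-sulfur cluster assembly, had 35 to 48 reads in sedentary and 23 to 36 in exercise libraries, and its call ended by DESeq2 and without sedentary replicate 1 or exercise replicate 1 or 2.

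In the endoplasmic reticulum 10 of 14 chaperone genes rose and 3 fell, with a median of 0.15. The 3 that fell were Pdia6, Calr and Pdia3, named after their values were seen. Their log2 fold changes were −0.29, −0.24 and −0.16, and 3 of the 14 also fell by DESeq2. Against a 1.2-fold change 5 of the 14 rose, beside 2.33% of all tested genes. With libraries summed at an assumed variation of 0.1, 4 rose, beside 0.487%. None of the 14 fell in either. Hspa5, the HSP70 of that compartment, rose 1.75-fold on TMM-scaled counts (edgeR adjusted p = 4.52e-35), with levels of 326 ± 1.41 FPKM in sedentary and 600.4 ± 7.93 FPKM in exercise livers (SD, n = 3). Hyou1, its HSP110 relative, rose 1.84-fold on the same scale. Dnajb9 and Manf rose 1.95-fold and 1.69-fold. Hsp90b1, the HSP90 of the endoplasmic reticulum, had a log2 fold change of 0.11 (SE 0.02, edgeR adjusted p = 9.07e-06). Hspa8 in the cytosol and Hspa5 here had larger fold changes than the HSP90 genes of their compartment, without a test of the difference. That did not hold for every HSP70 gene. Hspa14 of the cytosolic list had a log2 fold change of −0.16, which did not pass. In mitochondria the values were 0.09 for Hspa9 and 0.07 for Trap1, an HSP90 relative.

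Immediate-early genes, which respond within minutes to hormones, stress and handling of tissue, moved both ways in the same libraries. Of 14 tested 5 rose and 6 fell, with a median of −0.14. The level of Fos was 0.650 ± 0.0173 FPKM in sedentary livers and 2.33 ± 0.133 FPKM after exercise (SD, n = 3). On TMM-scaled counts Fos rose 3.40-fold, Jun rose 1.46-fold and Dusp1 rose with a log2 fold change of 0.58. Egr1 fell 2.55-fold and Myc fell 3.63-fold. Fos passed the filter of 1 FPKM only through its exercise libraries, and Myc only through its sedentary libraries. Among genes with a mean of at least 5 FPKM 3 rose and 4 fell. Atf3 was not tested and had 20 to 23 reads in sedentary and 25 to 38 reads in exercise libraries. The part of these shifts in the chaperone results was not tested.

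The mean profile of the 10 genes over the 6 libraries was matched most closely, among 366 other genes that differed at least 1.5-fold, by Rab30 (Pearson's r = 0.997), Herpud1, Creld2, Me1 and Gsta2 (r = 0.994). This is a description of 6 libraries in 2 groups, in which 16 genes reached an r above 0.99 and 32 a negative r of more than that size. Herpud1 went from 165 to 289 FPKM and Creld2 from 27.0 to 69.0 FPKM in the mean, and both are known to act in the endoplasmic reticulum.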

How the data were processed

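Liver RNA of 6 mice was read in pairs of 150 bases. Per the labels' protocols, the authors removed reads that were short, of low quality or rich in undetermined bases. Per the submitters' processing notes cutadapt, featureCounts, MultiQC and the GRCm38.p6 build were used. No aligner, annotation or version is named there. The deposited table held, per the file headers, an estimated count, an FPKM and a TPM for each gene and library; 6 columns of averages were not used. The authors' FPKM and TPM were taken as given.

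Counts were rounded and fitted with edgeR 4.0.16 in R 4.3.3 (TMM, quasi-likelihood F test, two-sided, no covariates). A mean of 1 FPKM or more over the libraries left 10266 genes to test, adjusted by Benjamini-Hochberg at 0.05; fold changes are on TMM-scaled counts with a prior count of 0.125, and can differ from ratios of FPKM. DESeq2 1.42.0 and limma 3.58.1 were alternatives. Promoter windows, names and gene positions came from RefSeq, and transcripts and overlaps from GENCODE M21. Pearson's r used standardised log2 CPM.

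The 10 genes and all lists were chosen with earlier results of these data known. Genes named from a list are up to 4 past the test with the smallest p, plus Hsf1, Fos, Jun, Egr1 and Atf3; others are given as values. Counting error alone limits precision to 24.1% for a sedentary Hspa1a count and 0.659% for an exercise Hspa8 count.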

Additional observations from a re-analysis of the deposited data

How the results depend on the processing

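The log2 fold changes of the 10 genes kept their sign in every alternative in which each was fitted. Genes called over the table, 3913, became 2512 with DESeq2, 653 against a 1.2-fold change and 176 with libraries summed at an assumed variation of 0.1. With 1 library left out it was 3402 to 3491, of which 1712 to 1761 were higher. Of the 10 genes 9 were called higher, beside 19.1% of all genes. It was 8 with DESeq2 beside 12.4%, 6 against a 1.2-fold change beside 2.33%, 3 at the assumed variation beside 0.487%, and 8 to 9 with 1 library left out. Other cytosolic chaperone genes that rose, 19, became 9 with DESeq2, 2 against a 1.2-fold change, 0 at the assumed variation and 12 to 17 with 1 library left out. Those that fell, 3, became 0 in the same 3 alternatives, 1 on library totals, 1 when the 20 most abundant genes were left out of the totals, and 1 to 4 with 1 library left out. At an unadjusted p under 0.05, 2 rose and 1 fell at the assumed variation, and 2 fell against a 1.2-fold change. The log2 fold change of Cct7 turned to 0.02 (0.0154) with limma on log2(TPM + 1). The share of HSP70 from Hspa1a and Hspa1b was 2.76 percentage points higher in exercise by FPKM, 3.76 by read counts and 2.70 to 2.82 with 1 library left out. Replicate numbers are shared by the groups, but same-numbered libraries did not deviate together (correlations −0.0265, −0.00691 and −0.0133); with the replicate block 3846 genes and 9 of the 10 were called. The cause of these shifts was not tested. Depth limits Hspa1a most.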
